A study of Mus musculus with 7 samples.

Results

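The data described here are 2 of 7 single-colour Agilent arrays, both of Osr1-GFP-positive cells from the metanephric mesenchyme of the mouse at embryonic day E11.5. The first array was hybridised with cells sorted as positive for GFP and for Itga8 (integrin alpha 8) and negative for Pdgfra (platelet-derived growth factor receptor alpha), called gated cells below. The second was hybridised with the remaining GFP-positive cells of the same tissue, which the labels give only as others and which are called other GFP-positive cells below. Both populations came from C57BL6J embryos with the same Osr1-GFP knock-in, in which GFP marks cells that use the Osr1 locus, so both arrays share that allele. The labels do not give the number of embryos, whether they were pooled, or whether the knock-in was on 1 or both alleles. The study set the gated cells against the others to separate nephron progenitors from the mesenchyme around them. Of its other 5 arrays, 2 hold cells with and without GFP from embryos at E8.5, and 3 hold gated cells, other GFP-positive cells and cells without GFP from the caudal part of the embryo at E9.5. There was 1 array per population, so no difference below has a replicate check, no test between populations was possible, and values describe these 2 RNA samples. Fewer cells of a type and less RNA per cell cannot be told apart in such bulk samples.

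The metanephric mesenchyme is the embryonic tissue that gives rise to the nephrons, the filtering units of the kidney. Within it, nephron progenitors that express Six2 condense around the tips of the ureteric bud, an epithelial outgrowth that they attract with Gdnf, while interstitial precursors that express Foxd1 lie around them and give rise to the stroma and pericytes. Wnt, FGF and Bmp signals set the balance between renewal of the progenitors and their conversion to epithelium. Osr1, a zinc finger transcription factor, is expressed more widely than Six2 and marks the mesoderm from which several of these lineages derive.

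Levels are given as log2 of the processed signal minus log2 of the 75th percentile of that array, so a level of 0 is the array's 75th percentile and a difference of 1 between the arrays is a 2-fold change. Levels of different genes come from different probes and are not set against each other. Both arrays lay on the same slide and scan. Their 75th percentiles were 251 in gated cells and 290 in other GFP-positive cells, 72.7% and 74.0% of spots were well above background, and the levels of all 55681 probes correlated between the arrays with Pearson's r = 0.948 and Spearman's rho = 0.930, which is a description across probes and not across samples. Of 25166 genes with a probe, 20304 were well above background on at least 1 of the 2 arrays and are called measured. Where a gene was not well above background on one array, its fold is a lower bound, written "at least", taken against the higher of its own level and the lowest level that was well above background on that array. That lowest level was -5.12 in gated cells and -5.04 in other GFP-positive cells. The mark depends on the probe, and genes above that level could lack it, such as Brinp1 at -4.36 in gated cells. The bounds are therefore nominal and not guaranteed. The median difference over all measured genes was 0.15, gated minus other GFP-positive cells.

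At a 4-fold threshold, 446 genes (2.2% of those measured) were higher in gated cells and 669 (3.29%) were lower. These counts hold 153 and 301 lower bounds. At 2-fold the counts were 2149 higher (10.6%) and 1918 lower (9.45%), and the remaining 16237 genes lay within 2-fold. With normexp background correction and an offset of 50, which draws dim signals together, 118 genes were past 4-fold higher and 197 past 4-fold lower. Gene groups below are counted from 2-fold upwards and are to be read against those shares.

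**Figure D1:**
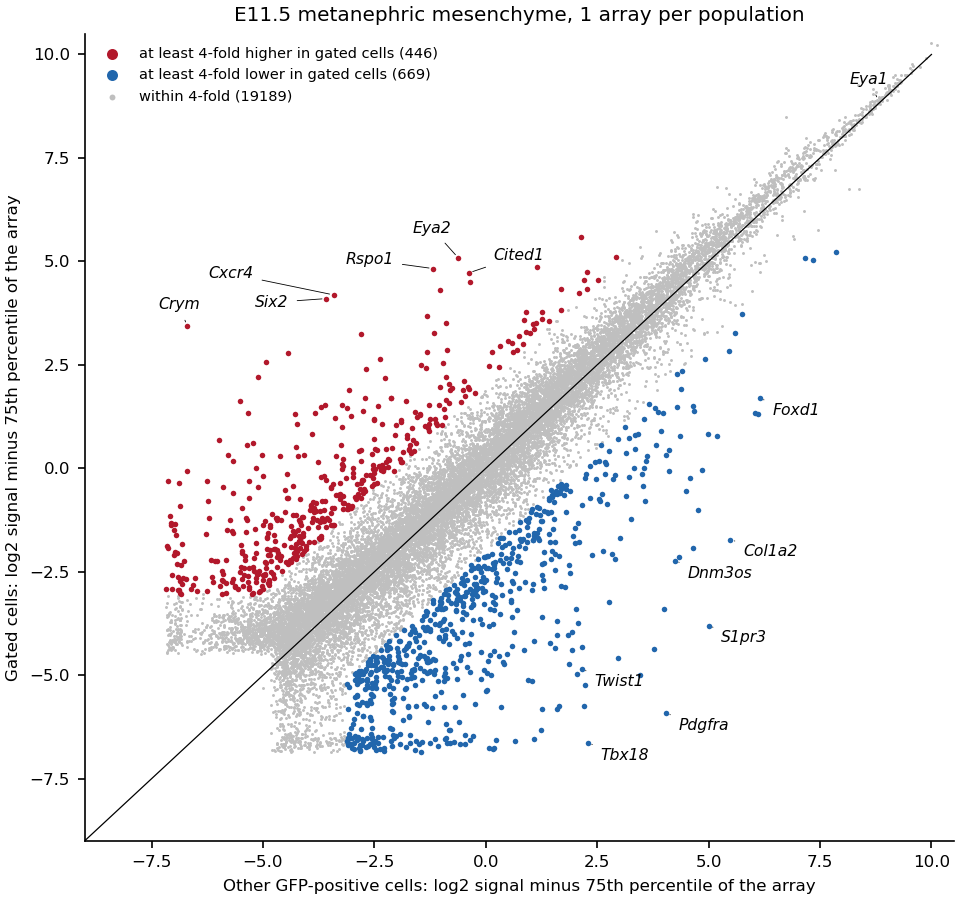
Level of each measured gene in gated cells (vertical axis) against other GFP-positive cells (horizontal axis) at E11.5, both as log2 signal minus the array's 75th percentile. Each point is 1 gene on 1 array per population, the diagonal marks equal levels, and the 446 and 669 genes at least 4-fold higher and lower in gated cells are coloured; Crym, Six2 and Cxcr4 lie far above the diagonal and Pdgfra, Tbx18 and S1pr3 far below it.

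The RNA of the genes used for the sort followed the gate. Itga8 had a level of 2.82 in gated cells and -1.31 in other GFP-positive cells, a 17.5-fold difference. Pdgfra was not well above background in gated cells (-5.92) and stood at 4.04 in other GFP-positive cells, at least 573-fold lower in gated cells, the largest bound among named genes. Since the proteins of both genes defined the populations, these values check the labels and are no finding. Osr1 was 10.8-fold higher in gated cells (1.63) than in other GFP-positive cells (-1.80), although all cells on both arrays had been sorted as GFP-positive, and it was well above background on both.

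Transcription factors of nephron progenitors were mostly higher in gated cells. Of 22 measured members of this list, 12 were at least 2-fold higher and 2 were lower, with a median difference of 1.73. Six2, which keeps these cells undifferentiated, had a level of 4.10 in gated cells and -3.58 in other GFP-positive cells, a 205-fold difference, and its second probe differed by at least 7.62 on the log2 scale. Cited1, a transcriptional co-regulator found in the uninduced progenitors, had levels of 4.72 and -0.38 in gated and other GFP-positive cells, 34.4-fold apart. Pax2, a paired-box factor needed for kidney formation, stood at 3.28 in gated cells and -1.16 in other GFP-positive cells (21.7-fold, with log2 differences of 1.65 and 3.25 on its other probes), and its relative Pax8 was at least 13.2-fold higher in gated cells. The homeobox factor Meox2 was 22.9-fold higher in gated cells (0.31 against -4.21) and Meox1 was 4.555-fold higher (5.11 against 2.92). Sall1, a zinc finger factor needed for kidney formation in mice, was 3.9-fold higher (3.57 in gated cells and 1.6 in other GFP-positive cells).

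Several regulators of the same tissue were near equal on the 2 arrays. Eya1, the co-activator required for metanephric mesenchyme to form, had levels of 8.88 in gated cells and 8.81 in other GFP-positive cells, a 1.05-fold difference. Its probe also stood between 8.65 and 9.01 on the 5 earlier arrays, cells without GFP included. It separated none of the populations, so its equal levels at E11.5 say little of Eya1, which had no other measured probe. The Eya1 paralog Eya2 was 52.1-fold higher in gated cells (5.09 against -0.62) and Eya4 was 3-fold higher (2.54 against 0.96). Wt1, a zinc finger factor of the whole mesenchyme and later of podocytes, was 1.88-fold higher in gated cells (5.90 against 4.99). Hoxc11 was lower in gated cells (at least 3.03-fold), and Six4, a homeobox relative of Six2, differed by less than 2-fold (-2.41 against -1.69).

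Secreted and surface genes of nephron progenitors were higher in gated cells in 16 of 22 measured members, with 1 lower and a median difference of 2.36. Itga8 itself is among them, so this list is not independent of the gate. Crym, a thyroid hormone-binding protein, had a level of 3.44 in gated cells and was not well above background in other GFP-positive cells (-6.70), at least 357.5-fold higher. Rspo1, a secreted amplifier of Wnt signalling, was 64.3-fold higher in gated cells (4.83 against -1.18), and Rspo3 was 5.28-fold higher (2.48 against 0.08). Spock2, a secreted proteoglycan, and Traf1, an adaptor of tumour necrosis factor receptors, were 21.4-fold and 23.8-fold higher. The 1 member at least 2-fold lower was Kit, a receptor tyrosine kinase, with 0.77 in gated cells and 4.36 in other GFP-positive cells (12.02-fold).

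Some ligands and receptors lay on opposite sides. In the Pdgf system, the ligand Pdgfa was 18.8-fold higher in gated cells (1.0 against -3.23) and Pdgfc was 3.86-fold higher (3.37 against 1.42). The receptor Pdgfrb, which was not part of the gate, was 22.2-fold lower in gated cells (-1.22 against 3.25). Flt4, a Vegf receptor known from lymphatic endothelium, was at least 19.1-fold higher in gated cells. The chemokine pair lay the other way round: the receptor Cxcr4 had a level of 4.19 in gated cells and -3.41 in other GFP-positive cells (194-fold), and its ligand Cxcl12 was 6.19-fold lower in gated cells (5.23 against 7.86).

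The Gdnf system, which calls the ureteric bud into the mesenchyme, was split. Of 22 measured members, 9 were higher and 7 lower in gated cells, with a median difference of 0.34. Gdnf was 4.89-fold higher in gated cells (0.01 against -2.28). Among its co-receptors, Gfra1 was at least 37.1-fold higher (0.17 against -5.68), Gfra2 was 4.84-fold higher (0.98 against -1.29) and Gfra3 was 22.4-fold lower (-2.10 against 2.39). Ret, the signalling receptor of the ureteric bud, was not well above background on either array. Npnt, the nephronectin ligand of integrin alpha 8 that is known from the ureteric bud, was at least 24.0-fold higher in gated cells on its brighter probe (-0.45 against -5.11) and differed by 1.1 on its other probe. Agtr2, an angiotensin receptor, was at least 35.35-fold lower.

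FGF ligands differed more than their receptors on the probes that stand for the genes. Of 16 measured ligands, 5 were higher and 3 lower in gated cells, with a median of 0.59. Fgf20 and Fgf9, which together maintain nephron progenitors in mice, were at least 53.0-fold and at least 31.55-fold higher in gated cells, and neither was well above background in other GFP-positive cells. Fgf10 was 11.4-fold higher (2.55 against -0.97) and Fgf18 was 10.8-fold higher (0.22 against -3.21), whereas Fgf7, a ligand of stromal cells, was at least 3.39-fold lower. On these probes all 5 measured receptors lay within 2-fold. Fgfr1 had 6.68 in gated cells and 6.82 in other GFP-positive cells, but its other probes were higher in gated cells by 0.98 and 1.32 (log2), so its probes disagreed, and the other Fgfr4 probe was higher by 1.25. Fgfr2 had 0.84 in gated cells and 0.53 in other GFP-positive cells. Of 12 measured FGF target genes, 6 were higher and 1 lower, with a median of 1.03; Dusp4, a phosphatase of ERK kinases, was 7.38-fold higher, and the Ets factors Etv4 and Etv5 were 6.22-fold and 3.665-fold higher.

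Bmp and Tgf-beta ligands were mostly lower in gated cells. Of 13 measured ligands, 3 were higher and 8 lower, and the median difference was -1.49. Bmp7, a survival factor of nephron progenitors, had 0.83 in gated cells and -3.90 in other GFP-positive cells (26.6-fold higher). Bmp2 had 1.34 in gated cells and -3.82 in other GFP-positive cells (35.8-fold higher). Inha, the inhibin alpha subunit, was 2.61-fold higher (-2.44 against -3.82). Bmp4, known from the mesenchyme around the ureter, was 2.99-fold lower (1.98 against 3.56), Bmp5 was at least 16.6-fold lower and Tgfb2 was 4.39-fold lower. Of the 11 measured Bmp inhibitors, Fst (at least 7.57-fold), Fstl1 (5.0-fold) and Chrdl1 (4.64-fold, -0.74 on its other probe in log2) were lower and Grem1, which antagonises Bmp4 at the budding ureter, was 2.17-fold higher.

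Wnt genes showed no common direction. Of 17 measured ligands and R-spondins, 4 were higher and 2 lower in gated cells, with a median of -0.08, and Wnt4, which triggers conversion to epithelium, differed by 0.58 (-1.82 against -2.40). Wnt8b was 14.25-fold higher in gated cells (1.70 against -2.14) on its brighter probe and differed by 0.82 on the other. None of the 12 measured secreted Wnt inhibitors was at least 2-fold higher and 4 were lower: Dkk1 (at least 24.4-fold), Dkk3 (at least 5.93-fold), Sfrp1 (5.87-fold) and Sfrp2 (3.21-fold). The receptor Fzd1 was 8.58-fold lower in gated cells (-0.26 against 2.85). Of 11 measured Wnt targets, Myc was 4.78-fold higher, Sp5 2.82-fold higher and Lef1 2.38-fold higher, Cdx1 and Nkd1 were lower, and the median was -0.11. The second probes of Lef1 (-0.06) and of Nkd1 (0.62, on the opposite side) did not repeat these differences.

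**Figure D2:**
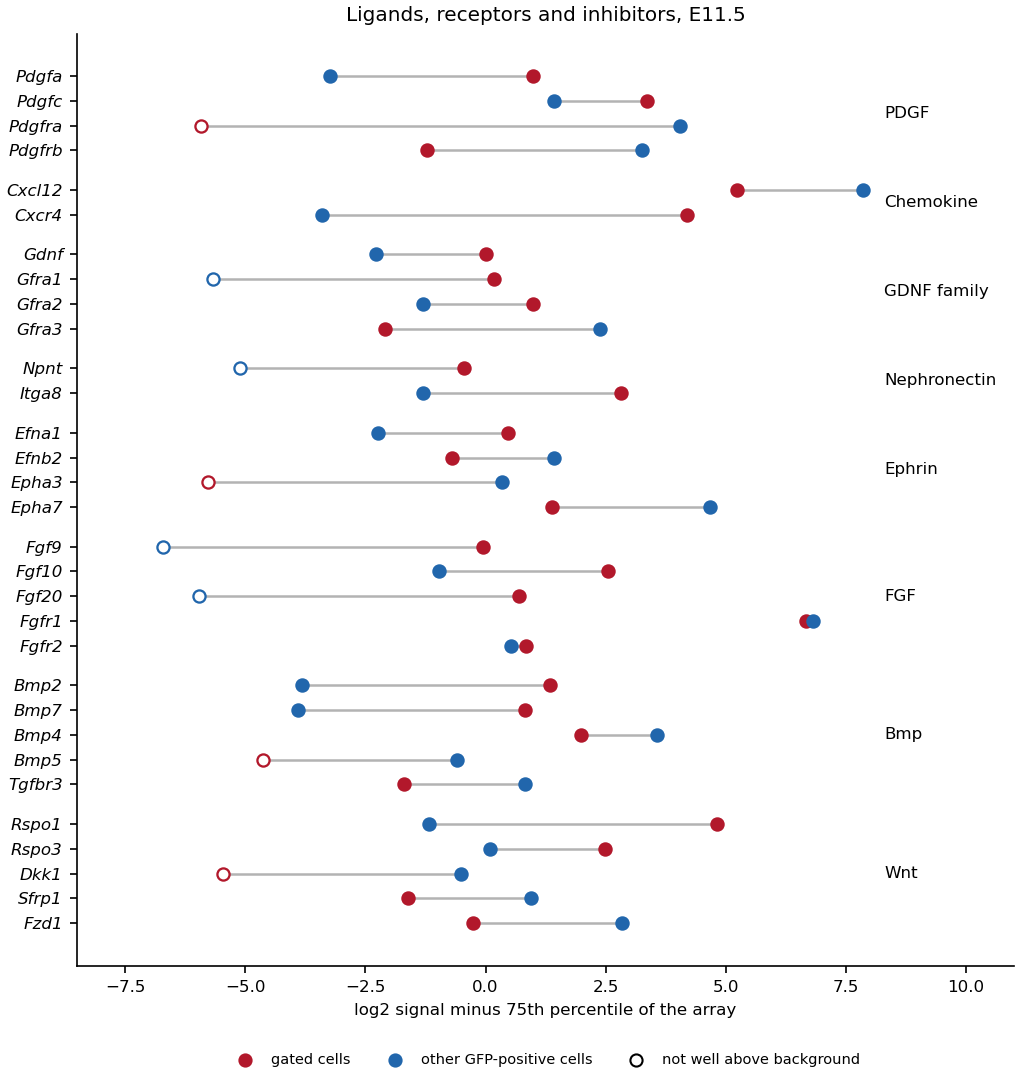
Levels of ligands, receptors and inhibitors at E11.5 in gated cells (red) and other GFP-positive cells (blue), as log2 signal minus the array's 75th percentile, with 1 array per population and open circles where a probe was not well above background. Pdgfa and Cxcr4 lie to the right in gated cells and Pdgfrb and Cxcl12 in other GFP-positive cells, and the circles of Fgfr1 and Fgfr2 nearly coincide on the probes shown.

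Notch genes were higher in gated cells in 6 of 17 measured members and lower in 2, with a median of 0.75. Heyl, a Notch target, was at least 14.2-fold higher, and Lfng, a glycosyltransferase that modifies Notch receptors, was 7.65-fold higher (-1.16 against -4.10). The ligand Dll1 was at least 3.26-fold higher, while Jag1 differed by 0.03. In the Hedgehog pathway, 2 of 13 were higher and 3 lower: the pathway's transcription factors Gli1 (10.8-fold, with a difference of -0.17 on another probe) and Gli2 (5.25-fold) and the forkhead factor Foxf2 (at least 25.1-fold) were lower in gated cells, and the receptor Ptch1 was within 2-fold. Of 17 measured retinoic acid genes, 1 was higher and 6 lower; the receptor Rarg was at least 27.2-fold lower, the carrier Crabp1 13.99-fold lower (-0.67 against 3.14) and the synthetic enzyme Aldh1a2 2.35-fold lower (3.61 against 4.85).

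Renal stromal genes were lower in gated cells in 22 of 27 measured members, with 1 higher and a median difference of -1.84. Pdgfra is in this list and was fixed by the gate. Foxd1, the transcription factor of interstitial precursors, had 1.69 in gated cells and 6.14 in other GFP-positive cells, 21.9-fold lower, and it was well above background in both. Ebf3 was 55.5-fold lower (-3.73 against 2.07) and Ebf1 at least 21.6-fold lower. The retinoic acid receptor Rarb, which acts in the stroma, was 3.58-fold lower, with differences of -2.22 and 0.06 (log2) on its other probes. The exception was Dlk1, a transmembrane protein of the Notch ligand family, which was 3.01-fold higher in gated cells (5.07 against 3.48).

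Transcription factors of mesenchyme were lower in 10 of 17 measured members and higher in 2, with a median of -1.94. Tbx1, a T-box factor known from pharyngeal and heart mesoderm, was at least 353-fold lower in gated cells (-5.0 against 3.46). Prdm16 was at least 188-fold lower (-4.59 against 2.96) and Twist1, a factor of mesenchymal identity, at least 128.5-fold lower (-4.86 against 2.15). Among genes of the ureteric mesenchyme and smooth muscle, 6 of 13 were lower and 1 was higher. Tbx18, which marks ureteric mesenchyme, was at least 170-fold lower (-6.64 against 2.29), and Gata6 was 38.8-fold lower (-3.68 against 1.6). Of 11 measured pericyte genes, 6 were lower and 1 higher, and Rgs5, a regulator of G-protein signalling, stood at -3.40 in gated cells and 4.01 in other GFP-positive cells (170-fold).

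Interstitial matrix genes followed the stroma. Of 31 measured members, 18 were lower in gated cells and 2 higher, with a median of -1.74. Col1a2, a chain of type I collagen, had -1.72 in gated cells and 5.49 in other GFP-positive cells (148.5-fold lower). The partner chain Col1a1 was 96.5-fold lower (-1.94 against 4.66) and Col3a1, of type III collagen, 54.1-fold lower (-1.0 against 4.75). Fbln5, an elastic fibre protein, was at least 84.0-fold lower and elastin (Eln) at least 18.6-fold lower. Col14a1 (at least 13.01-fold), with a log2 difference of 1.14 on its other probe, and tenascin C (Tnc, at least 4.84-fold) were higher in gated cells.

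Basement membrane genes and their receptors leaned the other way, with 11 of 31 higher in gated cells, 4 lower and a median of 0.35. The list holds Itga8, which the gate fixed. Col18a1 (7.38-fold), Col4a1 (3.49-fold), Lama5 (2.76-fold) and Col4a2 (2.30-fold), chains of laminins and of collagens of the basement membrane, were higher. The linkers Nid1 (5.08-fold) and Nid2 (7.61-fold) and the laminin chain Lama2 (10.6-fold) were lower. No member of the 18 measured matrix proteases and inhibitors was at least 2-fold higher and 6 were lower, among them Mmp2 (6.93-fold). Cldn6, a tight junction claudin, was 9.91-fold higher in gated cells (-0.27 against -3.58).

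**Figure D3:**
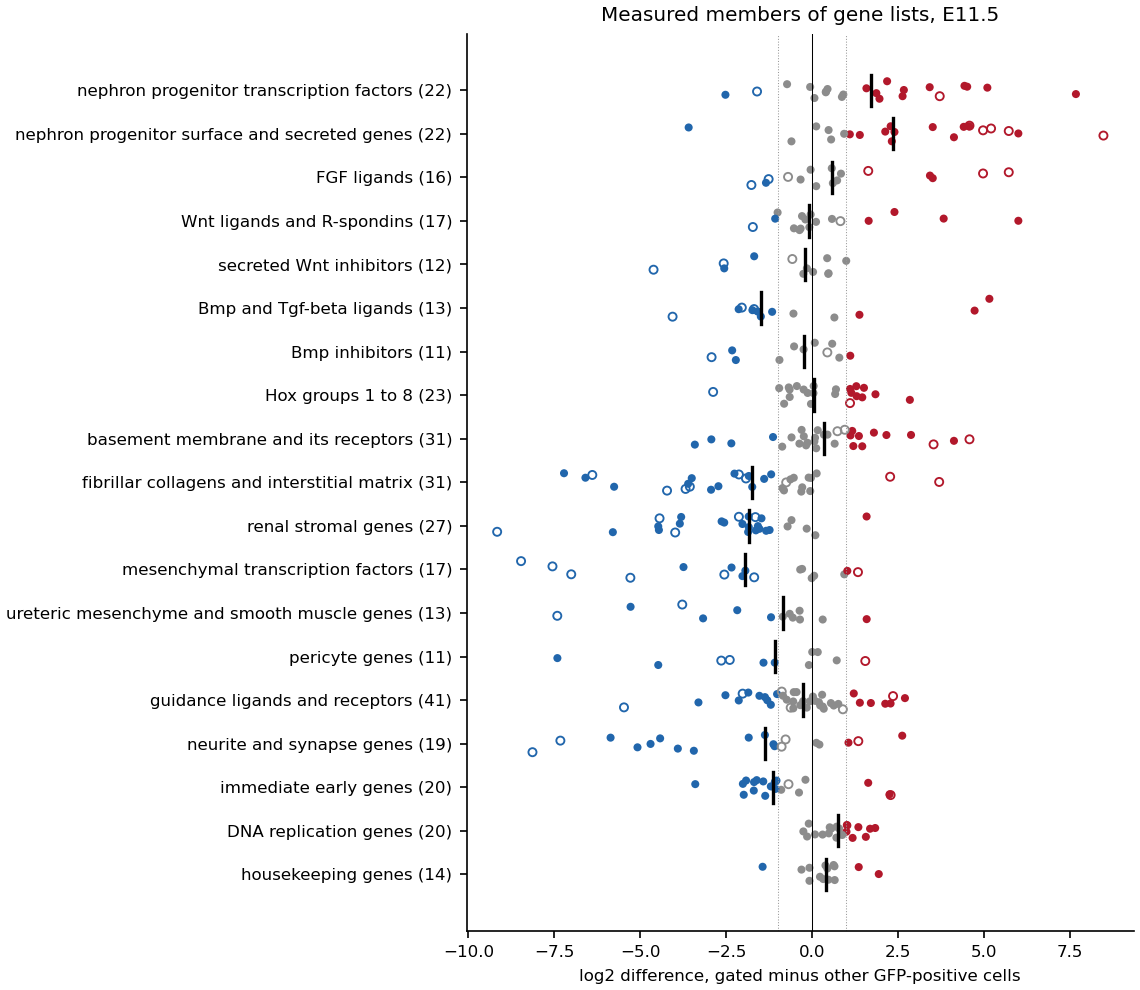
Difference between gated and other GFP-positive cells at E11.5 (horizontal axis, log2) for each measured member of 19 gene lists, with the number measured in brackets, the median as a black bar, dotted lines at 2-fold and open circles for lower bounds. Both nephron progenitor lists have medians above 1, and the stromal, matrix, mesenchymal factor, pericyte, neurite and immediate early lists have medians below -1.

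Neurite and synapse genes were lower in gated cells in 12 of 19 measured members and higher in 3, with a median of -1.37. Brinp1 (at least 281-fold, -4.36 against 3.77) and the adhesion protein Cntn1 (at least 160-fold, -5.74 against 2.20) were farthest apart. Stmn2, a microtubule regulator of growing axons, was 58.1-fold lower (-4.02 against 1.84) and Gap43, a growth cone protein, 21.4-fold lower (-2.53 against 1.89). Dcx, a microtubule protein of migrating neurons, was 6.18-fold higher in gated cells (2.95 against 0.32). Of 12 measured markers of neural crest and neurons, 3 were lower in gated cells and none was higher, with a median of -0.04. The lower ones were Stmn2 and Tubb3 (10.8-fold), which are also in the neurite list, and Dbh, a noradrenaline enzyme (at least 2.94-fold). Sox10 differed by 0.70 and Foxd3 was not above background on either array, and the part of such cells in the neurite genes was not tested.

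Guidance genes were higher in 7 and lower in 11 of 41 measured members. Epha3, an ephrin receptor, was at least 44.3-fold lower in gated cells and Epha7 was 9.87-fold lower (1.38 against 4.68), while the ligand Efna1 was 6.525-fold higher (0.47 against -2.24). Robo2, the Slit receptor that restricts ureteric budding, was 4.385-fold higher (1.04 against -1.1) and Slit1 at least 5.13-fold higher. Slit3 was 2.46-fold lower. Sema3f was 4.88-fold higher (3.28 against 0.99) and Sema3a 5.73-fold lower (-3.83 against -1.32).

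Hox genes of paralog groups 1 to 8 were higher in 9 of 23 measured members and lower in 1, although the median was 0.05; without scaling of the arrays 6 were higher, 3 were lower and the median was -0.16. Of these 9, 7 lie in the HoxB cluster (Hoxb1, Hoxb2, Hoxb3, Hoxb4, Hoxb5, Hoxb7 and Hoxb8), from 2.16-fold (Hoxb7) to 7.2-fold (Hoxb2) higher in gated cells, and Hoxb1 is a bound (at least 2.16-fold) and Hoxb3 differed by 0.29 (log2) on its other probe. Of 14 measured members of groups 9 to 13, Hoxb9 was 2.64-fold higher and Hoxd13 (5.82-fold), Hoxc11 and Hoxa13 (2.25-fold) were lower.

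Some DNA replication genes and most immediate early genes also differed at 2-fold. Of 20 measured DNA replication genes, 8 were higher in gated cells and none was lower at 2-fold (median 0.76; 4 were higher without scaling of the arrays), with Mcm2 3.23-fold and Mcm7 2.27-fold higher, while all 15 measured mitosis genes lay within 2-fold (median 0.36). Immediate early genes, which respond to growth factors and also to tissue dissociation, were lower in 13 of 20 members and higher in 3 (median -1.14). Fos had 1.61 in gated cells and 3.53 in other GFP-positive cells (3.78-fold lower), Egr1 was 2.67-fold lower and Jun 2.05-fold lower. Their part in the other differences was not tested. Of 13 measured genes of early embryonic timing, 5 were higher and none lower; Lin28a, which blocks let-7 maturation, was 3.91-fold higher (0.46 against -1.5) and Trim71, itself a let-7 target, 13.6-fold higher on its brighter probe (2.42 against -1.34) with a difference of -0.33 on another. Among 17 imprinted genes, 2 were higher and 5 lower, with Peg10 3.84-fold lower and Igf2 within 2-fold. Of 14 housekeeping genes, Hprt (2.57-fold) and Tfrc (3.85-fold, but 0.36 in log2 on another probe) were higher and B2m (2.71-fold) was lower, and the median of 0.42 lay above that of all genes.

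Markers of cell types outside the mesenchyme were low or near equal, with exceptions. In the endothelial list, Cdh5, Tek, Tie1, Flt1, Sox17 and Sox18 were not above background on either array, 2 of the 9 measured members (Esam and Ramp2) were higher in gated cells and none was lower, and Kdr had 1.45 in gated and 1.55 in other GFP-positive cells on its brighter probe and was higher in gated cells by 2.03 (log2) on the other. In the ureteric bud list, Ret, Cdh1, Ros1 and Upk1b were not above background, Epcam (2.56-fold) and Krt19 (2.52-fold) were higher in gated cells, and Gata3 (at least 17.3-fold) and Emx2 were lower. All 8 measured red cell genes lay within 2-fold, 1 of 13 myeloid markers was higher and 2 were lower, and their part in the results was not tested. Cartilage markers were lower in 5 of 9 measured members and higher in 1: Sox9, a factor of cartilage and of the ureteric tips, was 15.4-fold lower in gated cells (-0.43 against 3.52), Hapln1 at least 66.8-fold lower, and Matn1 at least 26.7-fold higher. Factors of lateral plate, heart and limb were lower in 4 of 7 measured members and higher in none, with Isl1 24.3-fold lower (-4.42 against 0.18). Markers of the later nephron were mixed: of 19 measured renal vesicle genes 3 were higher and 5 lower, and Lhx1 differed by 0.17. Of 14 measured podocyte and tubule genes 3 were higher and 2 lower, both of the latter past 4-fold. Lrp2 (at least 12.8-fold) and Plce1 (7.67-fold) were among the higher ones. Synpo was at least 129-fold lower with a difference of -0.65 on its other probe. Eya1, Wt1 and Six2, defining markers of the labelled metanephric mesenchyme, were well above background on both arrays, and Foxd1, Tbx18 and Pdgfra were so in other GFP-positive cells. The Eya1 probe was near equal on all 7 arrays, however, and so does not mark this tissue here.

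Beyond these lists, the 25 genes farthest apart in each direction included several with no place in the kidney lists. AU015791, a long non-coding RNA, had 2.57 in gated cells and was not well above background in other GFP-positive cells (-4.94), at least 182-fold higher. Clec10a, a C-type lectin known from macrophages, was at least 152.5-fold higher (2.21 against -5.12), and Padi2, which converts arginine to citrulline in proteins, was 148-fold higher (2.78 against -4.43) and differed by 7.70 on its other probe. Grb7, an adaptor of receptor tyrosine kinases, was at least 102-fold higher (1.63 against -5.51) and Pik3r5, a regulatory subunit of phosphoinositide 3-kinase gamma, at least 82.9-fold higher (1.33 against -5.34). The nuclear pore gene Nup210 was 66.05-fold higher on its brighter probe and 0.56 apart on another. The remaining genes of this set that were higher and have not yet been named were Sel1l3, Klhl14, Prr5l, Caps2, Mcpt8, 1600027J07Rik, Sorcs3, Slc25a21, Tafa5 and Kcnmb2, from 33.8-fold (Kcnmb2) to at least 50.4-fold (Sel1l3).

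In the opposite direction, S1pr3, a receptor for sphingosine 1-phosphate, had -3.80 in gated cells and 5.0 in other GFP-positive cells, 446-fold lower, the farthest apart of the genes well above background on both arrays. The adhesion molecule Vcam1 was at least 162-fold lower (-5.22 against 2.22), the fibroblast protease Fap at least 105-fold lower (-5.82 against 1.59) and the collagen receptor Ddr2 at least 81.95-fold lower (-6.32 against 1.24). Ccn4, a matricellular protein, was at least 109-fold lower and Sec24d, a coat protein of vesicles that leave the endoplasmic reticulum, at least 71.7-fold lower. Asb4 was 89.1-fold lower (-2.15 against 4.33). Ahnak, Marchf11, Rprm and Ugt1a6b completed the set, from at least 73.4-fold (Ugt1a6b) to at least 97.5-fold (Ahnak). Ugt1a genes share exons, so the level of Ugt1a6b may include its relatives. Marchf11 differed by -0.98 on its other probe, and the other probes of Ahnak differed by -3.77 to -1.80 (log2). Second probes of Asb4 (-2.90) and Ddr2 (-3.07) also gave smaller differences.

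The array also carries probes to long intergenic non-coding RNAs (lincRNAs) that were placed on the mm9 build and have no gene name. Of 12569 measured lincRNA probes, 249 were at least 4-fold higher in gated cells and 274 lower, with a median difference of 0.13. Of 2201 lincRNA regions with at least 3 measured probes, 8 had every probe at least 4-fold higher in gated cells and 5 had every probe at least 4-fold lower. The first group counts the interval chr10:69669025-69686275 once for each strand, with median differences of 3.51 (forward) and 3.41 (reverse). Strands are those given by the array. Both lincRNA regions of chromosome 17 in the first group lie on the 5′ side of Six2, which is on the reverse strand, and are on the forward strand. Their probes are shown because they give the sequences on which the pattern around Six2 rests, each written 5′ to 3′ in lower case.
chr17:86092349-86092408, forward: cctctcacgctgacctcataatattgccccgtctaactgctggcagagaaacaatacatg
chr17:86092996-86093055, forward: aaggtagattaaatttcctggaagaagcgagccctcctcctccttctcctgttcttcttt
chr17:86093064-86093123, forward: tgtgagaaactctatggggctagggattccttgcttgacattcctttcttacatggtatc
chr17:86219920-86219979, forward: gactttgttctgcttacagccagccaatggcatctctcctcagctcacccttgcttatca
chr17:86219980-86220039, forward: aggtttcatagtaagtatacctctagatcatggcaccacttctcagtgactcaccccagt
chr17:86220053-86220112, forward: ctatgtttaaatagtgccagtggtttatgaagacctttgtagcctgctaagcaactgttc

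The nearer region, at chr17:86092322-86093123, lies 8.72 to 9.43 kb from the Six2 probe. Its first probe had -0.35 in gated cells and -4.42 in other GFP-positive cells, a log2 difference of 4.07. The second had 4.79 and 2.63 in gated and other GFP-positive cells, a difference of 2.16. The third had 4.21 in gated cells and was not well above background in other GFP-positive cells (-7.00), a difference of at least 9.25. The probes of this region thus all lay on the side of Six2 but differed widely in size. The farther region, at chr17:86219507-86220112, lies 136 kb from the Six2 probe, and its probes gave differences of 5.18, 3.85 and at least 3.6. Between them, Gm4718 was higher in gated cells by at least 2.72. On the other side of Six2, its paralog Six3 at -60.3 kb differed by 0.31 and Six3os1 by 0.73, while Gm4603, nearer at -46.2 kb, was higher in gated cells by at least 1.2 (log2).

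**Figure D4:**
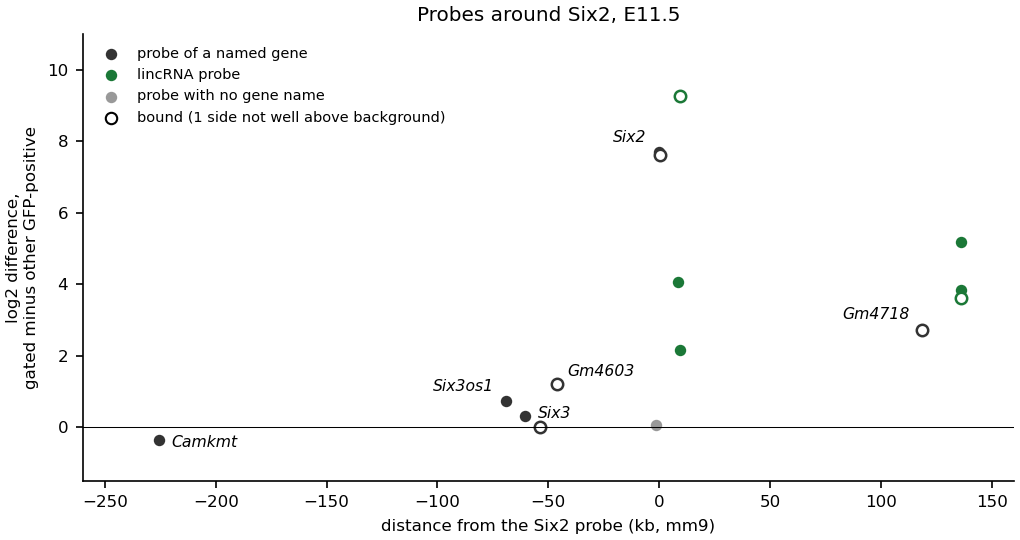
Log2 difference between gated and other GFP-positive cells at E11.5 (vertical axis) for measured probes around Six2, against their distance from the Six2 probe in kb on mm9 (horizontal axis). Black points are probes of named genes, green points lincRNA probes, the grey point a probe with no gene name, and open circles lower bounds; the 6 lincRNA probes lie between 2.16 and 9.25, while Six3 and Camkmt lie near 0.

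Among the regions that were lower in gated cells, the one at chr3:145313275-145315057 (mm9, forward strand) lies 4.69 kb from Ccn1, which encodes a secreted matricellular protein. Its 3 probes had levels of -4.39, -5.32 and -6.675 in gated cells, none well above background, against 1.22, 0.21 and -0.53 in other GFP-positive cells, in order of position. The log2 differences were -5.605, -5.33 and -4.59, each of at least that size. Ccn1 itself was 15.75-fold lower (-2.69 against 1.29). The probes are printed because the call of this region rests on them.
chr3:145314877-145314936, forward: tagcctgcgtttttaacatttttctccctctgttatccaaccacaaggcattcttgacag
chr3:145314937-145314996, forward: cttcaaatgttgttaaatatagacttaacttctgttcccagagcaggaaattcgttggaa
chr3:145314998-145315057, forward: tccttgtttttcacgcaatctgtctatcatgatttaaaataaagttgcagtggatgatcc

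Over the whole array, lincRNA probes past 4-fold lay beside named genes with a difference on the same side more often than all lincRNA probes did. Of 248 probes at least 4-fold higher in gated cells whose nearest named gene could be found, that gene was at least 2-fold higher in 32.7% and lower in 2.82%. For the 273 probes at least 4-fold lower, the nearest gene was lower in 32.2% and higher in 7.33%. The shares over all 12466 lincRNA probes were 11.1% higher and 10.9% lower. Median distances to that gene's probe were 9.31 kb for the higher probes, 16.8 kb for the lower and 18.8 kb for all. Some called probes lie on or close to that probe, such as 0 kb from Gm3874 and 0.023 kb from Mrln. Such pairs may read the same transcript, were not left out, and their part in these shares was not tested. The first set falls in 174 regions and the second in 213, so probes of a region share their neighbour and are not independent. Named genes that adjoin each other showed a few such runs, among them Gulp1, Col3a1 and Col5a2 on chromosome 1, lower in gated cells (5.50-fold, 54.1-fold and 12.15-fold), and 9130410C08Rik, Foxd2 and Foxd2os on chromosome 4, higher in gated cells (5.02-fold, 5.555-fold and 4.315-fold).

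Long non-coding genes whose RefSeq span holds microRNA hairpins were measured, although the microRNAs themselves were not, and strand was not considered in this match. Of 29 measured hosts of this kind, 2 were at least 2-fold higher in gated cells and 9 were lower. At 4-fold none was higher and 3 were lower. The shares over all measured genes were 10.6% higher and 9.45% lower at 2-fold, and 2.2% and 3.29% at 4-fold. Mir99ahg, a host gene by its name, was not found by this match and is not in these counts. Its values are given at the end of the text. Dnm3os, the antisense RNA within Dnm3 that yields miR-199a and miR-214, had -2.24 in gated cells and 4.24 in other GFP-positive cells (89.6-fold lower), and its other probes gave differences between -6.57 and -4.60. C430049B03Rik, the host of miR-322 and miR-503 on the X chromosome, was 7.21-fold lower (-1.05 against 1.80), and Mir9-3hg was at least 5.17-fold lower. Mir100hg, which contains miR-100, let-7a-2 and miR-125b-1, was 2.12-fold lower (-2.93 against -1.85). Examples of the mature sequences found for these hosts, from RefSeq on GRCm38.p6, are shown with the seed (bases 2 to 8) in capitals.
mmu-miR-199a-5p (Dnm3os): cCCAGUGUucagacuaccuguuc
mmu-miR-199a-3p (Dnm3os): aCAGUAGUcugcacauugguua
mmu-miR-214-3p (Dnm3os): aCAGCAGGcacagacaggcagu
mmu-miR-322-5p (C430049B03Rik): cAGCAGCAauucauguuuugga
mmu-miR-503-5p (C430049B03Rik): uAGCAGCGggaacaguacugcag
mmu-miR-9-5p (Mir9-3hg): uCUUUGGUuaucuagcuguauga
mmu-miR-100-5p (Mir100hg): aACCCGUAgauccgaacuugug
mmu-miR-125b-5p (Mir100hg): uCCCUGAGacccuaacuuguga
The 15 mature microRNAs found for these 4 hosts have different seeds over bases 2 to 8. For let-7a-2 only the 3p sequence was found, so this set may not hold every product of the hosts. The seeds of miR-322-5p (AGCAGCA) and miR-503-5p (AGCAGCG) differ only at base 8, so different seeds here do not mean unrelated ones.

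Promoters of the genes at least 4-fold apart were set beside those of all measured genes, using 250 bases before each RefSeq start. Sequences were found for 309 of the 446 higher genes, 480 of the 669 lower genes and 14320 of the 20304 measured genes. The motif CCGGAAGT, an Ets site, was in 3.88% of the promoters of higher genes, 0.417% of those of lower genes and 4.62% of those of all measured genes, on either strand. GGAATG, the Tead site, was in 10.68%, 16.04% and 11.2% in the same order, and TATAAA, the TATA box, in 8.74%, 11.7% and 9.41%. The median ratio of observed to expected CpG was 0.590 in promoters of higher genes, 0.476 in those of lower genes and 0.637 in all. CCAAT was in 33.0%, 29.4% and 36.01%, and GGGCGG, the GC box, in 50.8%, 48.1% and 49.6%. The E-boxes CATCTG (11.97%, 14.6% and 11.6%) and CATATG (1.62%, 3.13% and 2.10%) and TCAGGTT, a motif of Six2 (3.56%, 2.08% and 3.08%) were also searched on both strands. A match is a description of the letters and not evidence of binding.

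A pair of promoters of genes higher in gated cells and a pair of genes lower in them are shown as examples, each 5′ to 3′ on the strand of the gene, with matches to the CCAAT box, GC box and TATA box on either strand in capitals. They come from RefSeq on GRCm38.p6.
Six2, chr17:85688255-85688504, reverse: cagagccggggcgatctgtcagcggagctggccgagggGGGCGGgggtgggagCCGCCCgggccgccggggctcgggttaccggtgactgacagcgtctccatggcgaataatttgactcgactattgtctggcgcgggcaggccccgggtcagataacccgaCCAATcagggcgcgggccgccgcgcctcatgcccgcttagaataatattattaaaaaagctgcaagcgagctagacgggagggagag
Cited1, chrX:102252182-102252431, reverse: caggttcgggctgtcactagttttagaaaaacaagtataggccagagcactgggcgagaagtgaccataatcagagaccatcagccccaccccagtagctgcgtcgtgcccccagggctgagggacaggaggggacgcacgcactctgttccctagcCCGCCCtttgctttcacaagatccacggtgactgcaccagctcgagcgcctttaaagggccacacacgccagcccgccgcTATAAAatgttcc
Twist1, chr12:33957421-33957670, forward: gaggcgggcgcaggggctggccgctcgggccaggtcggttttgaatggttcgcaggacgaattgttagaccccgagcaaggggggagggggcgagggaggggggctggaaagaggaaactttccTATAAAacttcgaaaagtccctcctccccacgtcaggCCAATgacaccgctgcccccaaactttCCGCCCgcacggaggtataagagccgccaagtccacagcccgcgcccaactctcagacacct
Col1a2, chr6:4505368-4505617, forward: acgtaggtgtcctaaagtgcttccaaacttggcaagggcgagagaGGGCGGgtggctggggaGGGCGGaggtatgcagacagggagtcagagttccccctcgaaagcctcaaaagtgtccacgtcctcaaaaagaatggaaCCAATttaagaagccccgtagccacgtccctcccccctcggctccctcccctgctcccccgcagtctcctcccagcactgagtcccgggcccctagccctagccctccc
Cited1 and Twist1 had a TATA box in this window and Six2 and Col1a2 had none, and all 4 had a GC box; 4 chosen examples say nothing of the classes, whose shares are given above.

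Levels on the other 5 arrays showed which of these genes were already apart at E9.5, a comparison whose arrays lay on different slides. Of the 24 of 25 genes farthest higher at E11.5 that were measured there, 14 (58.3%) were at least 2-fold higher in E9.5 gated than in E9.5 other GFP-positive cells and 4 (16.7%) were lower, with a median difference of 1.13. Of the 25 farthest lower genes, 17 (68.0%) were lower at E9.5 and 2 (8.0%) higher, with a median of -2.01. Pdgfra is among them (-3.96 at E9.5) and was fixed by the gate at both stages. Over all 19805 genes measured in both the E9.5 and the E11.5 pair, the shares at E9.5 were 4.97% higher and 7.89% lower. Six2 had 1.16 in E9.5 gated cells and -2.63 in E9.5 other GFP-positive cells, and was at -3.97 in GFP-positive and -4.85 in GFP-negative cells at E8.5. Crym was 2.84 in E9.5 gated cells and -0.37 in E9.5 other GFP-positive cells. Cited1, in contrast, was high in every earlier population (3.18 to 7.62) and lay below the array's 75th percentile in E11.5 other GFP-positive cells alone. Cxcr4 was likewise between 0.88 and 3.48 in all 5 earlier populations and at -3.41 in E11.5 other GFP-positive cells. AU015791 and Sorcs3 had levels of at most -3.33 and -4.24 on the arrays other than that of E11.5 gated cells, where they stood at 2.57 and 1.06. Among the lower genes, Hapln1 was between 1.33 and 3.28 in the earlier populations and -5.12 in E11.5 gated cells, and Rgs5 lay on the other side at E9.5, where it was higher in gated cells by 1.76.

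**Figure D5:**
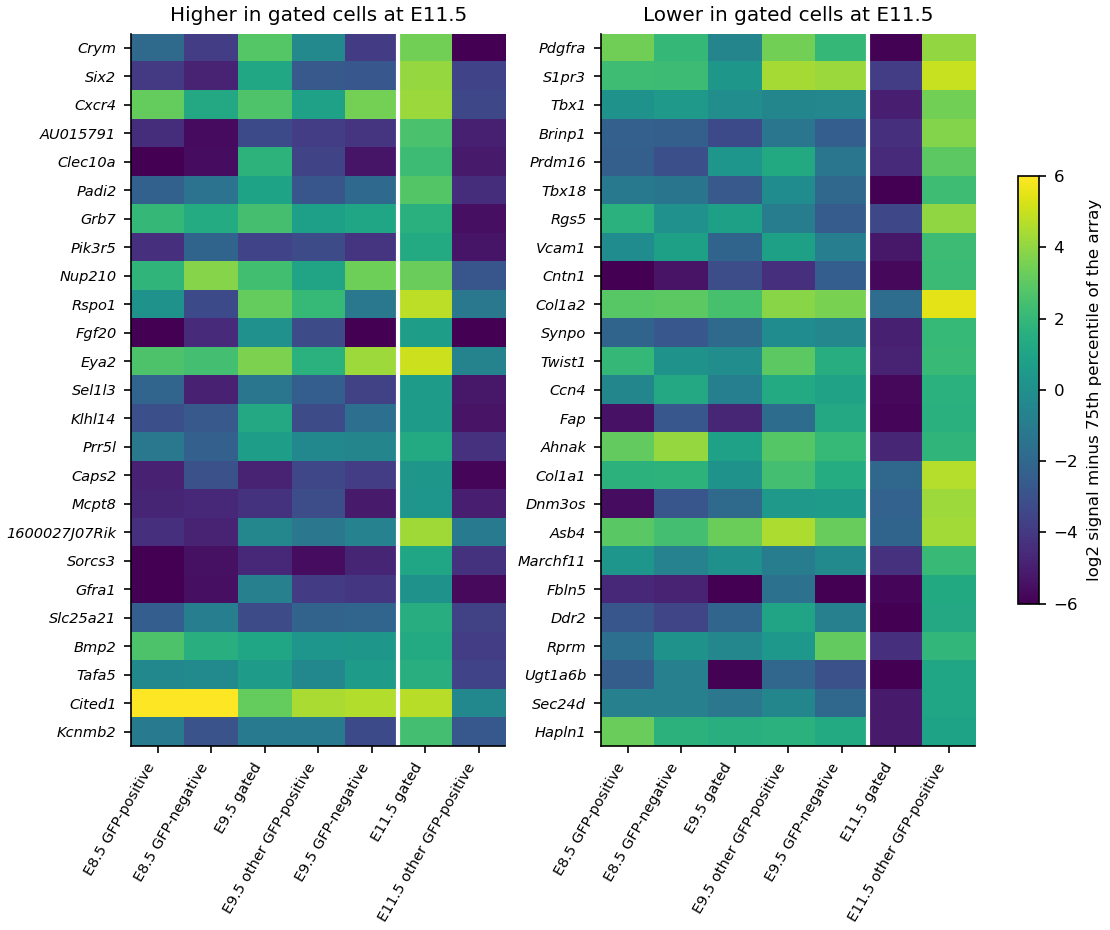
Levels of the 25 genes farthest higher (left) and the 25 farthest lower (right) in E11.5 gated cells on all 7 arrays, as log2 signal minus the array's 75th percentile, in colour limited to -6 and 6; the white line sets off the E11.5 arrays. Cited1 is bright on the 5 earlier arrays and on that of E11.5 gated cells, whereas Sorcs3 is bright only in E11.5 gated cells.

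Technical noise within an array was small against these differences, as far as repeated spots of probes well above background show it. For 286 probes spotted at least 10 times and well above background on both arrays, the median SD between spots was 0.10 in gated cells and 0.10 in other GFP-positive cells (log2). Spot noise of dimmer probes, such as those behind the lower bounds, was not measured. Genes with further probes gave a wider spread: of 113 other probes of higher genes, 77.9% lay on the same side and 59.3% were at least 2-fold apart on it, against 65.9% and 17.4% over all genes with several probes. For the lower genes 84.0% of 162 other probes lay on the same side and 63.0% were at least 2-fold apart. Where both probes were well above background on both arrays, their log2 differences lay a median of 1.71 apart for higher genes (66 pairs). That gap was 1.52 for lower genes (103 pairs) and 0.40 over all genes, so the size of a fold depends on the probe. The spread between embryos or sorts was not measured.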

How the data were processed

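RNA from sorted cells (10 ng) was amplified with the WT-Ovation Pico system, labelled with Cy3 and hybridised to 1-colour Agilent arrays, per the labels' protocols. The authors deposited 1 scanner table per array. Its processed signal is a fluorescence intensity, and background had been corrected with Agilent Feature Extraction (version 10.7.3.1 in the submitters' processing notes; same tool per the file headers). Amplification of so little RNA can widen differences of low signals. From the deposited intensity, log2 values were computed, control and flagged spots were left out, log2 of the array's 75th percentile over non-control spots was subtracted, and spots of a probe were averaged. A probe was well above background where at least 0.5 of its spots carried that mark in the file. Of the probes, 26425 were named through RefSeq accessions, 3988 through the symbol, 826 through a synonym and 2358 as in the file, and 22084 (lincRNA probes among them) have no name here. Where a gene had several probes, the one with the highest level, averaged over the 7 arrays, stood for it. Named genes are the 25 with the largest difference on each side whose other probes did not lie on the opposite side by more than 1 (log2), and members of 56 gene lists. A few genes that met the rule are not reported here. A gene outside this rule that is named was chosen after its values were seen. The comparison, its members and the lists were chosen with earlier results of these data known. The slide held both arrays, so slide and scan do not differ within the comparison. No test was run with 1 array per population, which is what limits precision here. Normexp background correction used limma 3.58.1 in R 4.3.3; all else used Python 3.11.15, pandas 2.3.3 and numpy 2.4.6. Counting was checked on simulated data with differences planted only in genes far above background. That check did not cover the rule for lower bounds. The alternatives were quantile normalization, no scaling, normexp with an offset of 50, both arrays well above background, no filter, the median over probes, and thresholds of 2-fold and 8-fold. Sequences of microRNAs and promoters are from RefSeq (GRCm38.p6); lincRNA positions are those of the array files (mm9), and nothing was converted between builds. The computed fold is 2 raised to the log2 difference.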

Additional observations from a re-analysis of the deposited data

Results flagged for a closer look

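Of 219 genes compared between the stages, 2 lay at least 4-fold apart in opposite directions at E9.5 and E11.5, gated minus other GFP-positive cells. The 219 were taken from the genes farthest apart and from list and family members past 4-fold. All were thus chosen by their E11.5 difference, and not all are named in the text. The difference between the stages was not tested, since each value rests on 1 array per population, and the E9.5 arrays lay on different slides. Adamts17, a secreted metalloprotease, differed by -3.28 at E9.5 (-3.51 in gated cells and -0.23 in other GFP-positive cells) and by 2.88 at E11.5 (0.44 in gated cells and -2.45 in other GFP-positive cells). Slc18a1, a vesicular monoamine transporter, differed by -2.16 at E9.5 (-1.64 in gated cells and 0.53 in other GFP-positive cells) and by at least 4.68 at E11.5 (-0.36 in gated cells, and -6.89 in other GFP-positive cells, not well above background).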

How the results depend on the processing

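Counts of genes at least 4-fold higher and lower in gated cells were 446 and 669. They were 370 and 698 with quantile normalization, 358 and 834 without scaling and 418 and 639 with the median over probes. They were 118 and 197 with normexp and an offset of 50, whose construction draws dim signals together, and 293 and 368 where both arrays had to be well above background, which leaves fewer genes. Without a filter or bounds they were 945 and 873, a share of higher genes of 51.98% against 40%. Thresholds of 2-fold and 8-fold gave 2149 and 1918, and 139 and 272. The median over all genes was 0.15, and 0.04 with quantile normalization and -0.06 without scaling, so differences are relative to that shift. The 238 genes checked were all chosen for being past 4-fold in the main setting, so a change of sign was unlikely from the start. None changed sign under any of the 6 settings other than thresholds. With normexp 123 fell short of 4-fold, and 101 had no value where both arrays had to be well above background. Medians of lists near 0 changed sign under single settings, among those of the text the FGF receptors (-0.05 with no scaling or quantile normalization), Hox groups 1 to 8, Wnt receptors, renal vesicle genes, Wnt targets (0.23 with the median over probes), Wnt inhibitors (0.03 with both arrays well above background) and Bmp inhibitors (0.08 without a filter). No paired analysis was possible because each population has 1 array. Signal over background limits 153 of the 446 higher and 301 of the 669 lower genes to bounds.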

Other observations

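Gene families outside the kidney lists differed in how far they moved apart. Of 37 measured protocadherins, adhesion proteins of the cadherin family, 12 were at least 2-fold lower in gated cells and 2 were higher, and Pcdh18 had 0.89 in gated cells and 3.92 in other GFP-positive cells, 8.18-fold lower. Of 12 measured T-box genes, 4 were at least 2-fold lower in gated cells and 2 were higher. The lower ones (Tbx1, Tbx18, Tbx3 and Tbx2) were all past 4-fold. The higher ones were Tbx15 (at least 2.53-fold) and Tbx21 (2.53-fold). The forkhead genes were split, with 5 of 41 higher and 7 lower. Foxp2 stood at -4.38 in gated cells and 0.86 in other GFP-positive cells (37.8-fold lower), while Foxd2 was higher in gated cells. Families of general upkeep hardly moved: 73 of 74 ribosomal protein genes (median 0.48), 36 of 37 proteasome genes (median 0.42) and 47 of 48 genes of mitochondrial complex I (median 0.32) lay within 2-fold.

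Mir99ahg, a long non-coding RNA of chromosome 16, was 12.3-fold lower in gated cells (-2.07 against 1.55), and the adjoining genes 8030498J20Rik and 9530003O04Rik were also at least 4-fold lower. Trim71 lay beside a lincRNA region on chromosome 9 whose 3 probes differed by 3.06 to 4.03, all higher in gated cells.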
